A study of Rattus norvegicus with 8 samples.

Results

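The Hox, Sox, Fox and Gata genes encode 4 families of transcription factors that set tissue identity. Their probes were taken from the mRNA probes of a rat array whose RefSeq transcript carried a symbol of one of these families, with Foxj1 and Foxm1 left out because they mark ciliated and dividing cells. This gave 53 genes (16 Hox, 11 Sox, 20 Fox and 6 Gata) among 15323 mRNA probes, each measured by 1 probe in 1 spot. The rat annotation holds 109 protein-coding genes with such symbols (40 Hox, 19 Sox, 44 Fox and 6 Gata), so the Gata family was covered in full and the others in part. Genes known for lung work such as Foxf1, Foxp2, Sox9 and Hoxa5 were not analysed here.

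The RNA came from male F344 rats at week 95 of a lung cancer model made with NNK, a nitrosamine of tobacco smoke. There were 3 lung tumors, which the study's methods describe as moderately differentiated adenocarcinoma, and 3 normal lung tissues matched to them, all from NNK-treated rats, so that the normal tissue had met the carcinogen too. The other 2 samples were clots from whole blood, 1 of a control rat and 1 of a NNK-treated rat, with no replicate. A 1-colour Agilent array (Arraystar rat lncRNA array) measured lncRNAs and mRNAs together, and its level is given below as log2 signal, quantile-normalized over the 6 lung arrays or over the 2 blood arrays.

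The labels were checked against marker genes. Each of the 6 measured type 2 alveolar markers was detected on every lung array, and 3 of them also on both blood arrays, where the summed normalized signal of all 6 was 959 and 538 against 919701 to 1025230 in lung. The summed normalized signal of the 5 erythroid markers was 1480160 in control blood and 1441650 in NNK blood against 220009 to 228365 in normal lung. Not every marker separated the tissues. The summed signal of the 3 ciliated markers was 149076 in control blood and 184301 in NNK blood. The sum was 10403 to 10698 in normal lung and 12120 to 26166 in tumor. In blood nearly all of it was Rsph1 (log2 signal 17.19 in control and 17.49 in NNK blood). Another ciliated marker, Dnai1, was well above background on all 6 lung arrays and on no blood array. The lung factor Nkx2-1 read 15.41 and 15.31 in control and NNK blood, against means of 17.13 in normal lung and 17.51 in tumor. Lung and blood were normalized separately for these values. The 3 normal lung arrays differed from each other by less than the noise between spots (ratio of observed to expected squared difference 0.467 to 0.787), and so did lung tumor 2 and lung tumor 3 (0.466), while lung tumor 1 differed from these 2 by ratios of 3.03 and 3.36. Counted once, they are 1 normal and 2 tumor samples, and a test on these takes its spread from the 2 tumor samples alone and assumes that the lone normal sample varies like them. The study's text calls the tumors independent samples, while nothing in the labels names separate animals for the numbered tissues, so p-values measure only the spread between these arrays, which may be technical. Slides were inferred from shared scan times and not from a slide label. By this rule the normal arrays and lung tumor 1 shared slide 1, lung tumor 2 and 3 slide 2, and the blood samples slide 3. With the slide as a block, the tumor difference therefore rests on lung tumor 1 alone against the 3 normal arrays of the same slide.

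As background, Hox genes encode homeodomain proteins and lie in 4 clusters in which the order of the genes follows the order of their use along the body axis. They act with TALE homeodomain cofactors of the Pbx and Meis groups. Sox proteins bind DNA through an HMG box, and the SoxF members Sox7, Sox17 and Sox18 work in the endothelium of vessels. Fox proteins carry a winged-helix domain, and Foxa1 and Foxa2 open chromatin at genes of lung epithelium. Gata proteins are zinc-finger factors: Gata1, Gata2 and Gata3 are best known from blood cells, and Gata4, Gata5 and Gata6 from heart and endoderm.

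Most of these genes were measurable in lung. Of the 53 genes, 30 exceeded background clearly on each of the 6 lung arrays (were well above background, by the scanner software's own call), where 67.7% of all mRNA probes were, 11 on some lung arrays and 12 on none, where 16.4% of all mRNA probes were. The families differed in this count. All 6 lung arrays detected 9 of 11 Sox genes, 11 of 20 Fox genes and 5 of 6 Gata genes, but only 5 of 16 Hox genes. In blood 23 genes were well above background on both arrays (54.6% of all mRNA probes) and 8 on 1 of them. Spots on all 8 arrays were well above background for 17 genes (47.8% of all mRNA probes). The number per array was 33 to 36 in lung and 27 on each blood array.

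**Figure D1:**
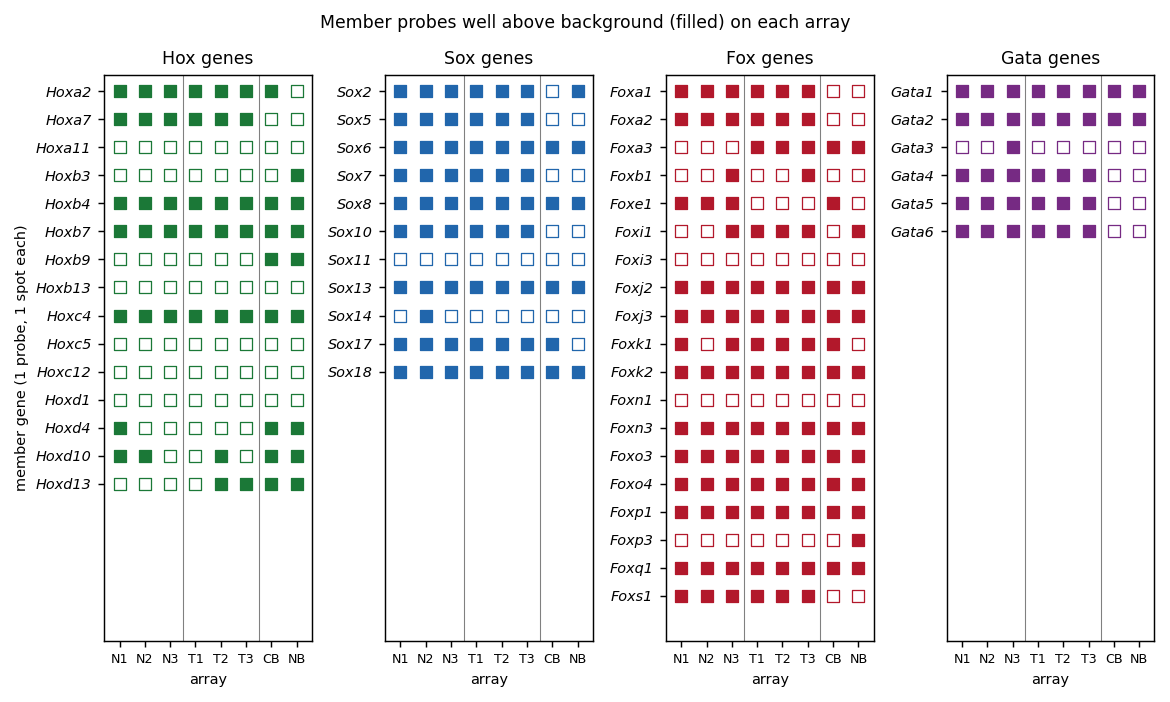
Detection of 51 of the 53 genes on each array, 1 row per gene and 1 column per array (N1 to N3 normal lung, T1 to T3 lung tumor, CB control blood, NB NNK blood); a filled square is a spot well above background. Few Hox rows are filled in lung, whereas 9 of 11 Sox rows are filled on all 6 lung arrays.

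No array detected 9 of the 53 genes, against 12.2% of all mRNA probes, among them Hoxa11, Hoxb13, Hoxc5, Hoxc12, Hoxd1, Sox11, Foxi3 and Foxn1. Several of them are known from other organs, such as Foxn1 from thymus and skin and Hoxb13 from prostate. Another 10 genes were detected on each lung array and on no blood array (12.6% of all mRNA probes): Foxa1, Foxa2, Foxs1, Hoxa7, Sox5, Sox7, Sox10, Gata4, Gata5 and Gata6. One gene, Hoxb9, showed the opposite pattern, a pattern held by 1.62% of all mRNA probes. Some spots were well above background on a single lung array only, as Gata3 (log2 signal 5.28 in normal lung 3, 1.28 to 1.56 on the other lung arrays), Hoxd4 (7.12 in normal lung 1) and Sox14 (4.99 in normal lung 2), although the 3 normal arrays agreed closely elsewhere.

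Lung tumor was set against normal lung with limma, and a gene was called where it differed at least 2-fold with an adjusted p (Benjamini-Hochberg, over all probes tested) of at most 0.05. Among the 53 genes, 35 were well above background on 3 or more lung arrays, and 27 of them kept enough spots for the test after those that the scanner software marks as uneven or outlying were left out. Of the 27, 4 were higher in tumor, 13 were lower and 10 were neither. Among all 12471 probes tested, 13.5% were called higher and 15.5% lower, and among mRNA probes 11.5% and 16.8%. The other 8 genes were tested with their outlier-marked spots kept, and 1 of them, Sox7, was called, lower in tumor (14.4% of all probes and 15.3% of mRNA probes in that fit). By family, all 4 higher genes were Fox genes, and the 14 lower ones were 5 Hox, 3 Sox, 2 Fox and 4 Gata genes. Among these, Foxa3 passed the filter through the tumor arrays alone and Foxe1 through the normal arrays alone. The median log2 fold change, tumor minus normal, was -1.63 over the 6 Hox genes, -0.91 over the 7 Sox genes, 0.67 over the 10 Fox genes and -2.59 over the 4 Gata genes tested, against 0.065 over all probes and -0.001 over mRNA probes. These medians leave out the 8 genes with marked spots kept, which include 5 Fox genes (-0.83 to 0.31) and Gata6 (0.07). With the near-identical arrays counted once, 2 genes were called higher and 9 lower. With the slide as a block, 2 were called higher and 11 lower.

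**Figure D2:**
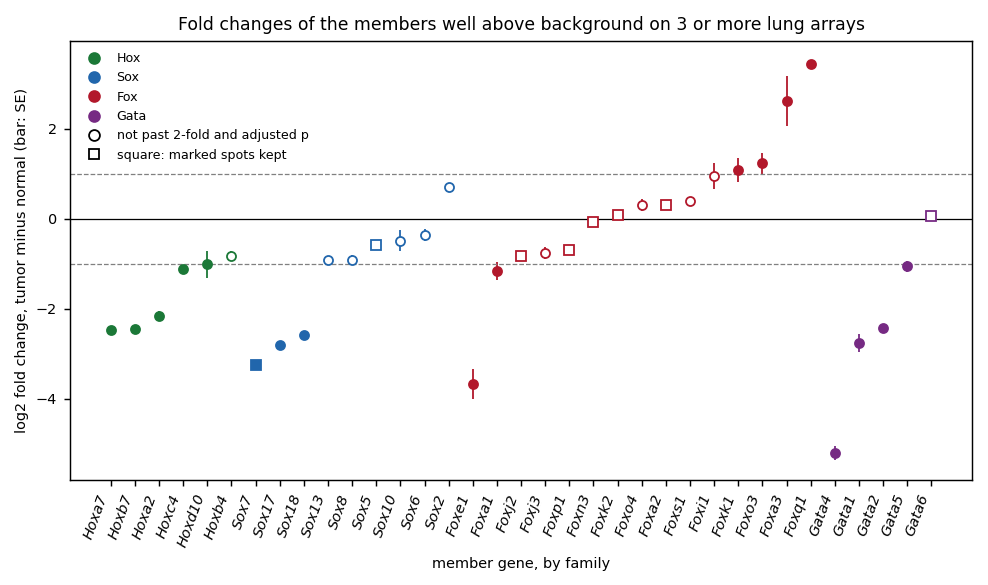
Log2 fold change (tumor minus normal, y axis, bars SE) of the 35 genes that passed the detection filter, by family; filled symbols passed 2-fold and the adjusted p, squares had marked spots kept, and dashed lines mark 2-fold. Gata4 (-5.20), Foxe1 (-3.68, with no tumor spot well above background) and Sox7 (-3.25) reach furthest down and Foxq1 (3.44) furthest up.

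The SoxF genes were all lower in tumor. Sox17, a factor of arterial endothelium, had log2 signals of 16.79, 16.81 and 16.77 in the 3 normal lung tissues and of 14.06, 13.98 and 13.91 in the 3 tumors. The tumor arrays lay close together and far below the normal ones. The difference was 7-fold (log2 fold change -2.81, SE 0.06, adjusted p = 4.18e-06, limma). Sox18, which also acts in lymphatic vessels, gave 15.57, 15.50 and 15.54 in normal lung and 13.01 and 12.93 in lung tumor 1 and 3, with the spot of lung tumor 2 left out as marked. It fell 5.93-fold (log2 fold change -2.57, SE 0.06, adjusted p = 1.72e-05). For Sox7 all 3 tumor spots were marked. With those spots kept, Sox7 gave 14.59, 14.57 and 14.58 in normal lung and 11.41, 11.24 and 11.32 in tumor, a 9.54-fold fall (log2 fold change -3.25, SE 0.06, adjusted p = 3.1e-06). No tumor array reached the range of the normal arrays for any of the 3 genes. Each call was also made under every alternative that was run, with log2 fold changes of -3.34 to -2.73 for Sox17, -2.85 to -2.47 for Sox18 and -3.37 to -3.17 for Sox7.

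Gata2, a factor of blood stem cells, mast cells and endothelium, fell as well. Its log2 signals were 15.98, 15.88 and 15.92 in normal lung and 13.62, 13.39 and 13.50 in tumor. This was a 5.37-fold fall (log2 fold change -2.42, SE 0.08, adjusted p = 9.38e-06). Together, Sox7, Sox17, Sox18 and Gata2 were all the measured genes of a list of endothelial factors, with a median log2 fold change of -2.69. Endothelial cell markers moved with them. Of 5 measured markers, 4 were called lower (Tek -2.74, Cldn5 -1.94, Pecam1 -1.88 and Emcn -1.37 log2 fold change) and Cdh5 was well above background on no lung array. The summed signal of the 5 markers was 232613 to 242061 in normal lung and 47675 to 48358 in tumor. Of 5 measured mast cell markers that passed the filter, 2 were lower, Kit (-1.89) and Tpsab1 (-1.41), and their list's summed signal was 1795 to 1844 in normal lung and 1013 to 1069 in tumor. The part of cell numbers in these differences was not tested, and in whole tissue fewer cells of a type and less RNA per cell cannot be told apart.

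Promoters of Gata1 and Gata2 are shown because both genes fell in tumor, and because Gata factors are known to bind the promoters of their own family. They are the 250 bases before and 50 after the start of transcription in RefSeq (build GRCr8), Gata1 at chrX:17201387-17201686 on the plus strand and Gata2 at chr4:122216031-122216330 on the plus strand. Capitals mark the Sox motif AACAAT and the GC box GGGCGG. Neither Gata motif searched, AGATAA or TGATAA, was found in these windows on either strand, which says only that these letters do not occur there.
Gata1: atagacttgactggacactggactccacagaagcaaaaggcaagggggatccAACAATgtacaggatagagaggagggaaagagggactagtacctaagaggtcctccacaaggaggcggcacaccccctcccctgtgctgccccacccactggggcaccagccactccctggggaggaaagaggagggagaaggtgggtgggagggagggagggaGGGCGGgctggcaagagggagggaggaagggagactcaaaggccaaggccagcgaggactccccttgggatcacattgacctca
Gata2: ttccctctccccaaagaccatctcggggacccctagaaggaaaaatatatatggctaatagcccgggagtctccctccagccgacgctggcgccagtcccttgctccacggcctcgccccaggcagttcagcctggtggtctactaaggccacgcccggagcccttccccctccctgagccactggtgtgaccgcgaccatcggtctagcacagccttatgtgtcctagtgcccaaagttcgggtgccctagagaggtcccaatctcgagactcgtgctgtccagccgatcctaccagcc
The Gata1 window holds 3 CpG dinucleotides and the Gata2 window 16, against a median of 7 over 33469 rat promoters.

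Gata1, the master factor of red cells, megakaryocytes and mast cells, was lower in tumor. Its log2 signals were 7.75, 7.74 and 7.93 in normal lung and 4.76, 5.49 and 4.90 in tumor. The tumor arrays spread more than the normal ones but did not meet them. It fell 6.77-fold (log2 fold change -2.76, SE 0.21, adjusted p = 0.000159). Under normexp, a background correction with an added offset that narrows differences between dim spots, the log2 fold change of Gata1 was -1.42. In blood its log2 signal was 13.05 and 12.69. Red cell markers were lower in tumor as well: 4 of 5 were called lower, among them Ahsp (-3.99), Alas2 (-3.09) and Slc4a1 (-2.61), while Hbb differed by -0.57. The summed signal of these 5 was 220009 to 228365 in normal lung and 130885 to 139180 in tumor. Of 4 platelet markers 3 were called lower, whereas Pf4 had a log2 fold change of 0.98, and their summed signal was 4927 to 5266 in normal lung and 7746 to 9075 in tumor. The part of residual blood in the Gata1 difference was not tested.

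Gata4, which drives heart and foregut development, showed a log2 fold change further from 0 than any other of the 35 genes. Its log2 signals were 9.95, 10.09 and 10.02 in normal lung and 5.14, 4.73 and 4.6 in tumor. All 6 spots were well above background, and the groups lay far apart. The fall was 36.7-fold (log2 fold change -5.20, SE 0.15, adjusted p = 7.48e-06). Values between -5.35 and -3.59 were found under the alternatives, the smallest change with normexp. Mesothelial markers, a list added after the values had been seen, moved in part with it: Wt1 (-4.86), Msln (-3.07) and Upk1b (-2.99) were called lower, Krt8 was called higher (1.07) and Krt19 differed by 0.23. The summed signal of the 5 was 132096 to 134946 in normal lung and 152582 to 160439 in tumor. Of 4 heart muscle markers tested, Tnnt2 (4.94) and Actc1 (1.72, well above background on no normal array) were called higher. Myh6 (-1.95) was called lower, and Nppa differed by -0.36. The part of either marker list in the Gata4 difference was not tested.

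Gata5 and Gata6 belong to the same subgroup as Gata4 and moved less. Gata5, named here after its values were seen, gave log2 signals of 6.52, 6.32 and 6.31 in normal lung and 5.53, 5.30 and 5.17 in tumor (log2 fold change -1.05, SE 0.12, adjusted p = 0.000701). This lies at the 2-fold limit, and the call was lost under 8 of 17 alternatives, with the sign kept. Leaving out normal lung 1 (-0.99) or lung tumor 3 (-0.97) was enough. Gata6, a factor of lung epithelium, gave 10.26, 10.17 and 10.22 in normal lung and 10.44, 10.21 and 10.22 in tumor with 2 marked tumor spots kept. Its groups overlapped (log2 fold change 0.07, SE 0.08, adjusted p = 0.464). Among 6 measured partners of Gata proteins, Tal1 (-2.54) and Lmo2 (-1.21), which join Gata1 or Gata2 on DNA, were called lower. Runx1 (1.12) and Spi1 (1.53), factors of blood cells that meet Gata proteins, were called higher.

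**Figure D3:**
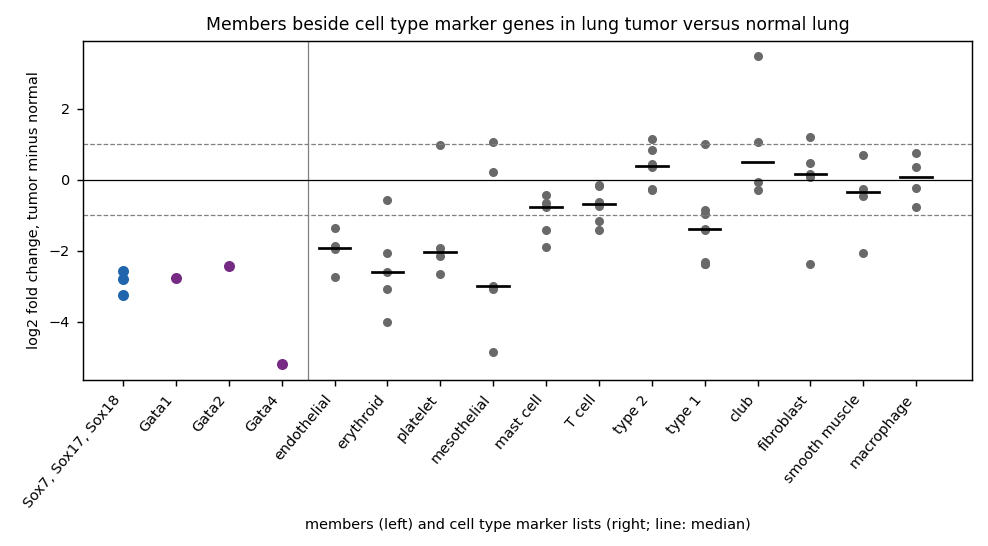
Log2 fold change (tumor minus normal) of the SoxF genes, Gata1, Gata2 and Gata4 (left, coloured) beside marker genes of 12 cell types (right, grey points, line at the median). Gata5 (-1.05) and Gata6 (0.07) are not drawn. The endothelial markers (median -1.91) and erythroid markers (-2.61) lie low, and the macrophage markers (0.07) near 0. The mesothelial list (median -2.99) was added after the values had been seen, and its Krt8 (1.07) and Krt19 (0.23) lie above 0.

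Most Hox genes measured in lung were lower in tumor. Of the 6 that passed the filter, 5 were called lower and none higher, and the sixth, Hoxb4, was lower by less than 2-fold. Among all probes tested 15.5% were called lower, and among mRNA probes 16.8%, and 10 of the 16 Hox genes were too dim to test. They came from all 4 Hox clusters. By position, 2 of 3 anterior genes tested (groups 1 to 5), both central genes (Hoxa7 and Hoxb7) and the 1 posterior gene tested (Hoxd10) were called lower.

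Hoxa7 gave log2 signals of 9.50 and 9.56 in normal lung 2 and 3, with normal lung 1 left out as marked, and of 7.17, 7.04 and 7.0 in tumor. Hoxb7, its paralog in the HoxB cluster, gave 9.26, 9.41 and 9.28 in normal lung and 6.86, 6.96 and 6.79 in tumor. Neither gene had overlapping groups, and their differences were nearly the same size. Hoxa7 fell 5.51-fold (log2 fold change -2.46, SE 0.08, adjusted p = 3.54e-05) and Hoxb7 fell 5.45-fold (log2 fold change -2.45, SE 0.08, adjusted p = 8.83e-06).

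Hoxa2, which patterns hindbrain and pharyngeal arches, gave log2 signals of 11.44, 11.41 and 11.46 in normal lung and 9.52, 9.19 and 9.15 in tumor. Lung tumor 1 was the highest of the tumors and still well below normal lung. It fell 4.44-fold (log2 fold change -2.15, SE 0.11, adjusted p = 4.11e-05). Hoxc4 gave 10.41, 10.30 and 10.33 against 9.40, 9.15 and 9.13 (log2 fold change -1.12, SE 0.09, adjusted p = 0.000217). Its call was lost under 5 alternatives, among them the slide as a block (log2 fold change -0.95) and the near-identical arrays counted once, which leaves 1 normal sample.

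Hoxb4, known for its action in blood stem cells, gave log2 signals of 8.20, 8.27 and 8.25 in normal lung and 7.20, 7.43 and 7.63 in tumor. The tumors were all lower, but by less than 2-fold (log2 fold change -0.82, SE 0.12, adjusted p = 0.00196). With the slide as a block it was -1.04 and passed. Hoxd10, named after its values were seen, was close to background in lung and is the least certain call: 4.46, 4.62 and 3.53 in normal lung and 3.23, 3.26 and 3.11 in tumor, with spots well above background on 2 normal arrays and 1 tumor array. It was 2.01-fold lower in tumor (SE 0.30 on the log2 scale, adjusted p = 0.0305), and 13 of 16 alternatives ended the call, including the removal of normal lung 1 (-0.87), normal lung 2 (-0.80) and each tumor array (-1.03 to -0.96).

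Hoxd13, a factor of digit formation, was below the filter in lung but well above background in lung tumor 2 and 3. It read 1.53, 1.64 and 3.28 in normal lung and 2.66, 4.31 and 4.80 in tumor. Hoxb3 was well above background on no lung array.

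Promoters of 3 Hox genes that were lower in tumor are shown, Hoxa2 and Hoxa7 from the HoxA cluster and Hoxc4 from HoxC. No promoter of Hoxb7 was matched. In GRCr8, Hoxa2 lies at chr4:82595643-82595942 on the minus strand, Hoxa7 at chr4:82648192-82648491 on the minus strand and Hoxc4 at chr7:136048809-136049108 on the plus strand, each read 5′ to 3′ along its gene. Capitals mark the joint Hox and Pbx motif TGATTNAT in Hoxa2, on the reverse strand, and the GC box GGGCGG and the Gata motif TGATAA in Hoxa7, the latter on the reverse strand.
Hoxa2: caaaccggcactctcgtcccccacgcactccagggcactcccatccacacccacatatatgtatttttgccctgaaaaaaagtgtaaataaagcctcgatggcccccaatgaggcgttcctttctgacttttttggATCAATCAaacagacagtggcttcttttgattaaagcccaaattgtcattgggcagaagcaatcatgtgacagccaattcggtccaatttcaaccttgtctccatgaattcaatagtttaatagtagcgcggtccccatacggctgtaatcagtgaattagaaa
Hoxa7: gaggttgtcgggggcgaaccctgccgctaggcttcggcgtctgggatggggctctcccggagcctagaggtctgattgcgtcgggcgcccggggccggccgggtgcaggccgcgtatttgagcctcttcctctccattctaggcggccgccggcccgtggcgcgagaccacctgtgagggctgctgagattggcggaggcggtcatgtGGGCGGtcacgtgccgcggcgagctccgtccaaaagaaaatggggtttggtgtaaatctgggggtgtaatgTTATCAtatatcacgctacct
Hoxc4: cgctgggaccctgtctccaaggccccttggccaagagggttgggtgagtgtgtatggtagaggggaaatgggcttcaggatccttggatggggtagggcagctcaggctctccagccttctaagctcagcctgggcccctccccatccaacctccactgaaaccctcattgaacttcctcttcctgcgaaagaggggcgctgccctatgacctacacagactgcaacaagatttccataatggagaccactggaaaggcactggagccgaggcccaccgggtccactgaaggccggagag
The Hoxc4 window held none of the 6 motifs searched. The 3 promoters differ in base composition, with 29 CpG dinucleotides in Hoxa7, 9 in Hoxa2 and 6 in Hoxc4, although all 3 genes were lower in tumor. TGATTNAT stood in 3.2% of all promoters of this length and in 1 of the 31 promoters of Hox, Sox, Fox and Gata genes, TGATAA in 9.0% and 4 of 31. A match is a description of letters and not a site.

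Partners of Hox proteins did not move as one. Of 7 TALE probes tested, 2 were called lower, Meis1 (-2.14) among them, and Tgif1 (1.40) was called higher, with a median log2 fold change of -0.05. Of 7 probes tested for upstream regulators of Hox genes, 2 were called lower, Cyp26b1 (-2.31) and Cyp26a1 (-1.68), which break down retinoic acid. The median of that list was -0.76. The retinoic acid receptor Rarg, by both of its probes (-0.86 and -0.76), and the Hox activator Kmt2a (-0.71) differed by less than 2-fold.

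The only called rises were in the Fox family. Foxq1, a factor of hair shaft and stomach lining that is also studied in carcinomas, rose most. Its log2 signals were 11.02, 10.90 and 10.95 in normal lung and 14.52, 14.33 and 14.35 in tumor. All 3 tumors lay far above all normal tissues and close to each other. The rise was 10.9-fold (log2 fold change 3.44, SE 0.07, adjusted p = 4.64e-06), and every alternative gave 3.31 to 3.56 and kept the call.

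The promoter of Foxq1 is shown as that of the gene with the largest called rise. It lies at chr17:33124038-33124337 on the minus strand of GRCr8, and capitals mark the GC box GGGCGG, once on each strand.
Foxq1: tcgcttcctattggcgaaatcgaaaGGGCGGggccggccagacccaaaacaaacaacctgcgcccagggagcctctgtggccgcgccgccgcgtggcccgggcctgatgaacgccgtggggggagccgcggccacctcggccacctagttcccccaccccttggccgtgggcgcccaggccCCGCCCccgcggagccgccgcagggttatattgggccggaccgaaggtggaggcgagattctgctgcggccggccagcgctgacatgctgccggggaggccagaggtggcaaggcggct
It holds 32 CpG dinucleotides, more than the other promoters printed. CpG-rich starts were common in these families: the median was 20 CpG over the 31 promoters matched to 30 of the 53 genes, and 19 of 31 held GGGCGG, as did 33.1% of all promoters.

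Foxa3, a liver and gut relative of Foxa1 and Foxa2, was well above background on all tumor arrays and no normal array. It read 1.22, 1.22 and 3.13 in normal lung and 4.6, 4.62 and 4.21 in tumor on the log2 scale. Against the lowest signal well above background, or its own signal where higher, Foxa3 was 2.37-fold higher in tumor. This is not a strict limit. Foxa3 passed the filter through the tumor arrays alone, so its adjusted p of 0.00949 (limma) rests on normal signals not well above background. With the slide as a block its adjusted p was 0.0549, and with normexp its log2 fold change was 0.44.

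Foxo3, a factor held in check by insulin and Akt signalling, and Foxk1 were higher by a little over 2-fold from dim spots. Foxo3 gave log2 signals of 5.79, 5.08 and 5.02 in normal lung and 6.70, 6.48 and 6.42 in tumor (log2 fold change 1.23, SE 0.23, adjusted p = 0.00561). Foxk1 gave 4.43, 3.85 and 4.00 against 5.29, 4.71 and 5.56 (log2 fold change 1.09, SE 0.27, adjusted p = 0.0155). The groups of both genes were apart by less than 1 log2 unit at their nearest arrays. With the near-identical arrays counted once neither call held, but that fit has 1 normal sample and takes its spread from the 2 tumor samples. The log2 fold changes there were 1.28 for Foxo3 and 1.12 for Foxk1. Under normexp the log2 fold changes were 0.60 for Foxo3 and 0.28 for Foxk1, and neither call held. For Foxk1, the slide as a block (adjusted p = 0.0668, limma) also ended the call. So did leaving out normal lung 2 (0.97), normal lung 3 (adjusted p = 0.0507, limma) or lung tumor 3 (0.91).

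Foxe1 and Foxa1 were the Fox genes called lower. Foxe1, known from thyroid development, read 6.04, 5.88 and 6.08 in normal lung and 2.63, 2.77 and 1.57 in tumor, where no spot was well above background. Against the lowest signal well above background, or its own signal where higher, the fall was 9.12-fold. This is not a strict limit, and with normexp the log2 fold change was -0.96. Foxe1 passed the filter through the normal arrays alone, so its adjusted p of 0.000332 (limma) rests on tumor signals not well above background. Foxa1 read 7.16, 7.52 and 7.20 in normal lung and 6.52, 5.98 and 5.90 in tumor. Its log2 fold change of -1.16 (SE 0.20, adjusted p = 0.0042) was -0.77 with the slide as a block, and 5 of 17 alternatives ended the call.

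**Figure D4:**
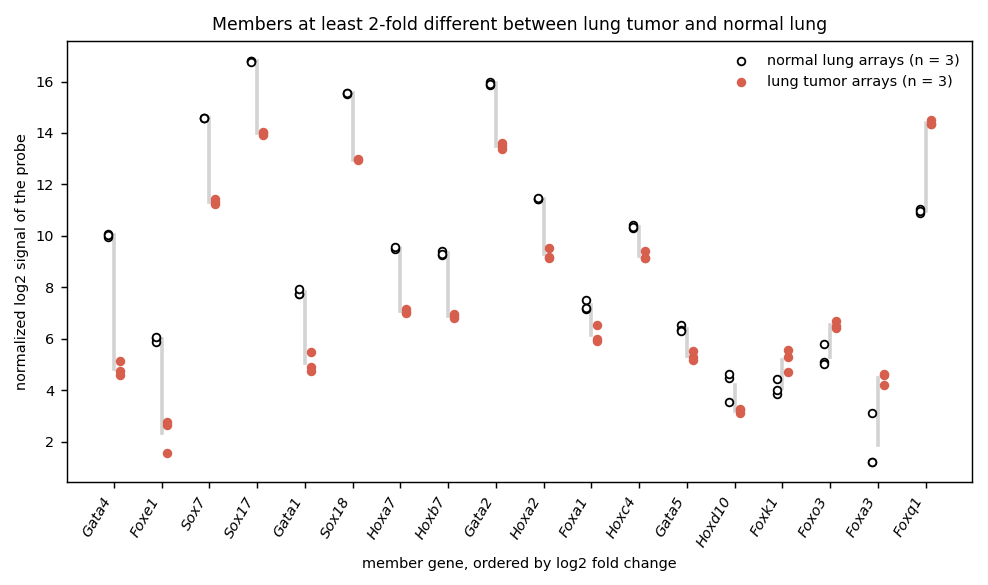
Normalized log2 signal of the 18 called genes on each lung array (open circles normal lung, filled circles lung tumor, 3 arrays each, grey line between group means; marked spots left out except for Sox7), ordered by log2 fold change. The groups of Gata4 lie furthest apart, and those of Hoxd10 and Foxk1 lie close together near background.

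Other factors of lung epithelium differed by less than 2-fold. Foxa2, which activates surfactant genes, gave log2 signals of 14.08, 14.09 and 14.03 in normal lung and 14.28, 14.40 and 14.47 in tumor with 3 marked tumor spots kept. All tumors were slightly higher (log2 fold change 0.31, SE 0.07, adjusted p = 0.00924). Sox2, a factor of airway progenitors, gave 12.11, 12.07 and 12.14 against 12.92, 12.77 and 12.74 (log2 fold change 0.70, SE 0.07, adjusted p = 0.000436). The tumors were higher on every array, but by less than 2-fold. Foxp1, which works with Foxp2 and Foxp4 in airway epithelium, gave 11.53, 11.44 and 11.45 against 10.83, 10.82 and 10.68, with all its spots marked and kept (log2 fold change -0.70, SE 0.07, adjusted p = 0.000328).

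Of the 6 factors of lung epithelium tested, 1 was called higher (Foxa3) and 1 lower (Foxa1), with a median log2 fold change of 0.19. Of 14 tested factors that act beside Foxa and Gata6 in lung, 6 were called higher, Mycn (3.35), Elf3 (2.44), Elf5 (2.37), Cebpa (2.05), Id2 (1.78) and Grhl2 (1.20). Cebpa was well above background on no normal array, so its value rests on normal signals near background. Another 3 were called lower, the mesenchymal Tbx4 (-2.13) and Tcf21 (-1.99) and the type 1 cell factor Hopx (-1.41), while Nkx2-1, the lineage factor of lung epithelium, differed by 0.38. Among epithelial cell markers, 1 of 6 type 2 probes was called higher (Sftpc, 1.14) and none lower, and 5 of 8 type 1 probes were called lower and none higher. Of 4 club cell markers, 2 were called higher, Scgb3a1 (3.48) and Cyp2f4 (1.08), and none lower, and neither of the 2 ciliated cell markers tested was called. Their part in the Fox differences was not tested.

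The remaining Sox and Fox genes stayed within 2-fold in lung. Sox13 differed by -0.92 (adjusted p = 0.00034), Sox8 by -0.91 (adjusted p = 0.000559) and Sox5 by -0.59 (adjusted p = 0.00122) on the log2 scale. Sox13 lay close to the limit and passed it with the 75th percentile shift (-1.08) and with the slide as a block (-1.05). Sox6 (-0.36, adjusted p = 0.0627) and Sox10 (-0.48, adjusted p = 0.116), the neural crest factor, did not pass the adjusted p. Foxj2 (-0.83), Foxj3 (-0.75), Foxs1 (0.39) and Foxi1 (0.96, adjusted p = 0.0308) passed the adjusted p alone. Foxi1, which opens the programme of ionocytes, passed both limits without normal lung 3 (1.08) or without lung tumor 1 (1.23). It also did with the 75th percentile shift (1.16). It passed neither limit with the slide as a block (0.42, adjusted p = 0.237, limma) or without normal lung 2 (0.79, adjusted p = 0.087, limma). Its spot was well above background on only 1 normal array. Foxo4 (0.31), Foxk2 (0.09) and Foxn3 (-0.07) passed neither limit. By the adjusted p alone, 8 of the 35 genes were higher and 21 lower, where 65.1% of all probes passed in one direction or the other (66.1% with marked spots kept).

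Blood was measured once in each group, so differences between NNK blood and control blood are those of 2 clots and have no test. Of 31 genes well above background on at least 1 blood array, 9 were higher in NNK blood by 2-fold or more, 11 lower by as much and 11 within 2-fold. Of all probes compared, 23.1% were higher and 19.1% lower by this rule, and of mRNA probes 26% and 17.8%. The median log2 difference, NNK minus control, was -0.43 over these genes and -0.11 over all probes. Among the 23 genes well above background on both arrays, 5 were higher and 8 lower. The shares above are for probes well above background on at least 1 blood array, so they cannot be set beside this count.

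The genes with the largest differences among these 23 came from all 4 families. Foxj2 was 3.60-fold higher in NNK blood (log2 signal 6.87 in control and 8.72 in NNK blood), Hoxb4 3.07-fold (5.46 and 7.08), Gata2 2.85-fold (6.24 and 7.75) and Foxj3 2.68-fold (6.40 and 7.82). In the other direction, Sox18 was 4.18-fold lower (6.83 and 4.77), Sox6, a factor of red cell maturation, 3.18-fold lower (8.82 and 7.15), Hoxd13 2.76-fold lower (7.70 and 6.23) and Hoxb7 2.53-fold lower (5.69 and 4.35). Under normexp only 2 genes were higher by 2-fold or more and 2 lower. The summed signal of T cell markers was higher in NNK blood (8055 in control and 14124 in NNK blood). Cd3d among them was slightly lower (log2 signal 12.73 and 12.47), and Cd4 was detected on no array. Summed signals were also higher for macrophage markers (3735 and 7097) and the dim B cell markers (9.12 and 86.7), while platelet markers were dimmer (150370 and 85280). Erythroid markers summed to 1480160 and 1441650. Their part in these differences was not tested.

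Several lymphoid or epithelial factors were detected in 1 clot only. Foxp3, the factor of regulatory T cells, was well above background on the NNK blood array alone of all 8 arrays (log2 signal 4.28, against 1.95 in control blood). Sox2 and Foxi1 likewise read 4.78 and 4.79 in NNK blood and 1.95 in control blood, the lowest value of that scale, and Hoxb3 read 4.96 and 3.70. Hoxa2 (5.57), Foxe1 (5.29) and Sox17 (5.16) were well above background in control blood but not in NNK blood. Gata3, the T cell member of the family, was not well above background on either array.

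**Figure D5:**
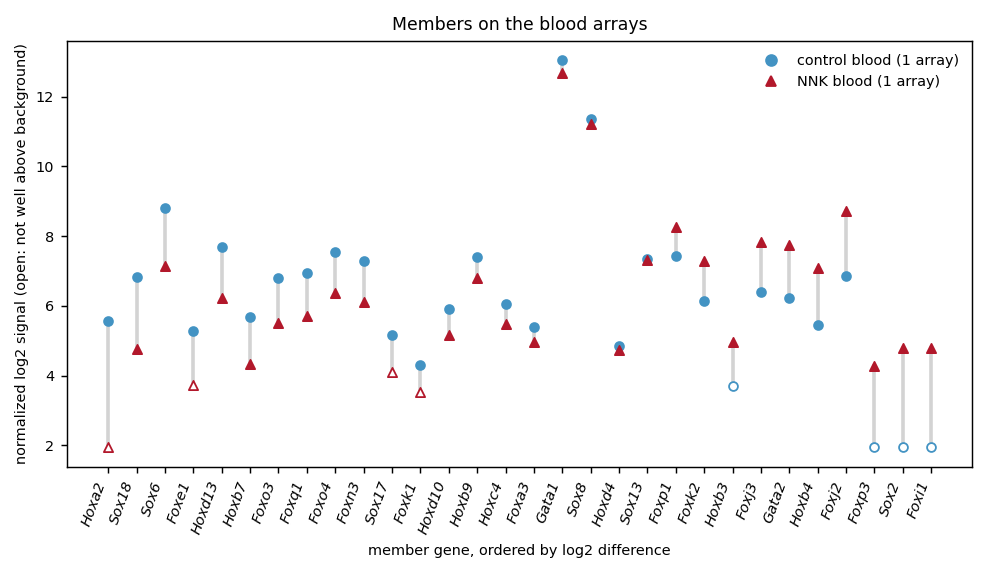
Normalized log2 signal of 30 of the 31 genes well above background on at least 1 blood array, in control blood (circles) and NNK blood (triangles), 1 array each, with open symbols where a spot was not well above background. Gata1 and Sox8 nearly coincide, whereas Sox18 and Foxj2 differ by about 2 log2 units in opposite directions.

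Lung and blood were compared on 3 scales (quantile normalization over all 8 arrays, a 75th percentile shift and the signals as deposited), since the blood arrays had lower signals (75th percentile 95.4 and 205.8, against 1191 to 1329 in lung). Of 44 genes well above background on any array, 19 were brighter on all 6 lung arrays than on both blood arrays on every scale and 7 were brighter in blood, where 39.3% and 15.2% of mRNA probes were. The 7 were Gata1, Sox6, Sox8, Hoxb3, Hoxb9, Hoxd10 and Hoxd13. Gata1 had log2 signals of 15.07 and 14.84 in control and NNK blood and of 4.62 to 7.44 on the lung arrays when all 8 arrays were normalized together. Sox8, a SoxE gene better known from testis and neural crest, had 13.96 and 13.86 in blood and 5.06 to 6.06 in lung. Hoxb9 had 9.98 and 8.94 in blood, and no lung spot was well above background (1.40 to 1.81). Among posterior Hox genes, Hoxb9, Hoxd10 and Hoxd13 were well above background on both blood arrays, whereas none of the 6 measured posterior genes was so on all 3 normal or all 3 tumor arrays. By scan time, the 2 blood arrays shared a slide with none of the lung arrays, so tissue and slide cannot be told apart.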

How the data were processed

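RNA of 3 normal lung tissues, 3 lung tumors and 2 blood clots was grouped by the sample labels; the description of the NNK blood sample named a tumor, but its title, source and tissue named blood. For each array the authors deposited spot intensities from Agilent Feature Extraction 10.5.1.1, background-subtracted (processed signal) and not normalized between arrays. They also deposited log2 values, quantile-normalized over all 8 arrays, which served as an alternative.

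In R 4.3.3, log2 processed signals were quantile-normalized within lung and within blood, and spots with an outlier mark were left out. A probe was detected where more than 50% of its spots were well above background. Probes detected on at least 3 of 6 lung arrays with at least 2 values per group were tested with limma 3.58.1 (lmFit, eBayes, Benjamini-Hochberg over all probes tested); genes that lost too many marked spots were fitted with them kept. Blood was compared at 2-fold with no test. Where no array of a group detected a gene, the fold was taken against a floor on each array. The floor was the higher of the gene's signal and the lowest signal well above background. Such a fold is not a strict limit, because some spots not well above background read above that lowest signal. Arrays have no counts, so their number limits the precision.

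The named genes are all called genes whose groups do not overlap (at most 12 rises and 12 falls), textbook factors of lung and blood, the 4 largest rises and falls in blood, and genes detected in 1 lung group or in blood only; a few genes are counted but not reported by name here. The genes and marker lists were chosen with earlier results of these data known. Names came from RefSeq (GRCr8), which matched 14274 of 15323 mRNA probes, and promoters for 30 of 53 genes. Motifs searched on both strands were 2 Gata motifs (AGATAA and also TGATAA), a Fox motif (TGTTTAC), a Sox motif (AACAAT), a joint Hox and Pbx motif (TGATTNAT) and the GC box (GGGCGG). The files held no mean spot signal, so the normexp alternative (offset 50) used median signals. On simulated data with 200 of 11359 probes changed, limma recovered 77% of changes of 1.5 log2 units and 91% of 2.5, with 3 false calls.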

Additional observations from a re-analysis of the deposited data

How the results depend on the processing

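The 17 alternatives for lung kept the direction of each called gene. Of 576 single values that they gave for the 35 genes, 520 kept direction and call, 42 lost the call, 8 gained it and 6 changed sign, all 6 near 0: Foxk2 with the 75th percentile shift (-0.11) and without lung tumor 1 (-0.0032), Foxn3 with the slide as a block (0.14) and without lung tumor 3 (0.021, range without single arrays -0.17 to 0.021), Gata6 without lung tumor 1 (-0.0036, range -0.0036 to 0.12) and Sox10 with the slide as a block (0.024). The 4 genes called higher became 1 under normexp background correction, 2 with detection on all 6 lung arrays, 2 with the slide as a block and 2 with near-identical arrays counted once, and the 13 called lower became 8 under normexp. Leaving out 1 array gave 3 to 5 higher and 10 to 12 lower. The methods' t-test with adjusted p gave 4 and 12, and with an unadjusted p, added after the data were seen, 4 and 13. In blood the 9 higher and 11 lower genes became 2 and 2 under normexp, and 5 higher with detection on both arrays. The causes were not tested. The study describes pairs, and the labels call the tissues matched without saying that a number marks 1 animal, so the numbers were not taken as pairs. Deviations of same-numbered arrays correlated at 0.143, -0.0406 and 0.16 over 11359 probes, and those of normal lung 3 and lung tumor 2 at 0.14. These correlations cannot decide the pairing, because near-identical arrays deviate mostly by the noise between spots. With the replicate block, 4 genes were higher and 13 lower. Dim genes such as Hoxd10, Foxk1 and Foxa3 are limited by their signal over background.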
